A study of Mus musculus with 9 samples.

Results

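The delta protocadherins are 9 nonclustered protocadherin genes, and each was followed here through the probe sets that the platform annotation assigns to it and to no other gene. They are 9 of the 16854 genes measured in the series, with 127 of the 318760 probe sets annotated to 1 gene. Of these 127, 119 passed the filter on dim probe sets (a mean log2 signal over the 9 arrays above 5.64), 8 did not, and 4 members kept every probe set. The class holds 4 delta-1 members (Pcdh1, Pcdh7, Pcdh9 and Pcdh11x) and 5 delta-2 members (Pcdh8, Pcdh10, Pcdh17, Pcdh18 and Pcdh19).

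Total RNA of the cerebral cortical region of mouse embryos at E13.5 was hybridised to Affymetrix exon arrays, which read each gene through several separate probe sets. There were 3 arrays of homozygous Sfpq knockouts (Sfpq-/-), 3 of heterozygous knockouts (Sfpq+/-) and 3 of wild-type controls. The protein made from Sfpq is nuclear, binds RNA, belongs to the DBHS family and acts in transcription and splicing. The labels give neither the deleted part of Sfpq nor a Cre driver, and the extraction notes list Sfpq+/- a second time where Sfpq-/- might stand, so the genotype of an array rests on its title and genotype field. Whether litters were separate is not stated either, and each p-value therefore refers to the spread between these 9 arrays alone.

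Delta protocadherins are cell surface proteins with an ectodomain of cadherin repeats that mediates weak homophilic adhesion. The delta-1 members carry a cytoplasmic motif that binds protein phosphatase 1 alpha, while several delta-2 members recruit the WAVE complex, which drives branched actin assembly. In the embryonic brain they are expressed in patterns that differ between regions and layers, and they are known for roles in axon outgrowth, cell sorting and synapse formation.

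Sfpq itself had log2 signals of 8.94, 9.27 and 8.74 on the Sfpq-/- arrays, 10.53, 10.15 and 10.09 on the Sfpq+/- arrays, and 10.33, 10.19 and 9.88 on the control arrays. All Sfpq-/- arrays lay below all others, with a log2 change of -1.15 ± 0.16 (SE) against control (limma, adjusted p = 0.000787). The Sfpq+/- arrays overlapped the controls (0.12 ± 0.16 SE, limma adjusted p = 0.90), so this gene gives no check of the heterozygous label. Emx1, a marker of cortical progenitors, averaged 8.66 on Sfpq-/- arrays, 8.83 on Sfpq+/- arrays and 8.84 on control arrays. Xist, read to tell the sex of the embryos because 2 members are X-linked, was high on 1 Sfpq-/- array, on no Sfpq+/- array and on 2 control arrays, and the Y-linked gene Kdm5d was low on the same arrays.

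In Sfpq-/- cortex the adhesion molecules Pcdh7 and Pcdh9 fell by 0.54 and 0.53 on the log2 scale relative to control, and Pcdh1 rose by 0.44. The remaining 6 members did not pass the test at the gene level, which took the mean log2 signal of a gene's kept probe sets. In bulk tissue, more or fewer cells of a type and more or less RNA per cell cannot be told apart. Thus 3 of 9 members passed in Sfpq-/- against control, 1 higher and 2 lower, against 12.1% of all genes (5.98% higher and 6.12% lower). The arrays of the 2 genotypes did not overlap for 7 of 9 members, 2 higher and 5 lower in Sfpq-/-, against 26.9% of all genes. At an unadjusted p under 0.05 there were 6 of 9 members, against 24.2% of all genes. The median change over the 9 members was -0.17, and over all genes it was 0.03.

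**Figure D1:**
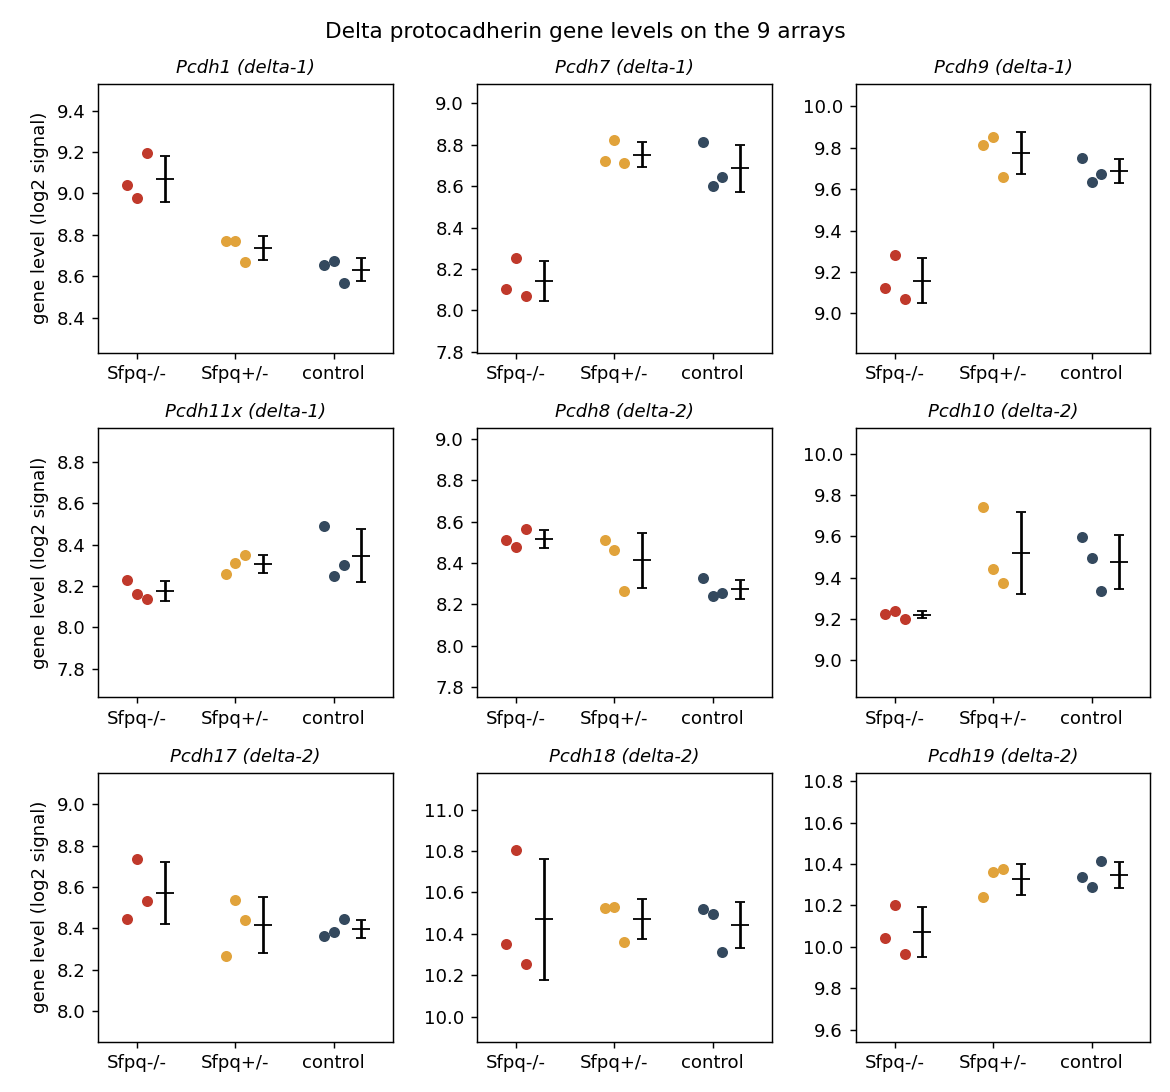
Gene level of each delta protocadherin (log2 signal, vertical axis) on the 9 arrays, by genotype. Points are arrays, and the bar beside them is the mean with its SD (n = 3). The vertical axes differ in position and span the same width. Pcdh7 and Pcdh9 are low on the 3 Sfpq-/- arrays and Pcdh1 is high on them, while the points of Pcdh18 overlap.

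Pcdh7, a delta-1 member whose cytoplasmic tail binds the protein Set, had gene levels of 8.10, 8.25 and 8.07 on the Sfpq-/- arrays, 8.72, 8.82 and 8.71 on the Sfpq+/- arrays, and 8.82, 8.60 and 8.64 on the control arrays. Every Sfpq-/- array lay below every array of the other genotypes, whose values overlapped. Relative to control the Sfpq-/- level was 1.46-fold lower (log2 change -0.54 ± 0.08 SE, 95% interval -0.73 to -0.36, limma adjusted p = 0.00144). It passed the test under all 14 alternative settings, with changes between -0.71 and -0.48.

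Pcdh9, the delta-1 member with the longest gene of the class, had gene levels of 9.12, 9.28 and 9.07 on the Sfpq-/- arrays, 9.82, 9.85 and 9.66 on the Sfpq+/- arrays, and 9.75, 9.63 and 9.68 on the control arrays. Here too the Sfpq-/- arrays stood apart below all others. Relative to control the Sfpq-/- level was 1.44-fold lower (log2 change -0.53 ± 0.08 SE, 95% interval -0.72 to -0.34, limma adjusted p = 0.00172). With the median of the probe sets in place of their mean the change was -0.20 and did not pass (limma adjusted p = 0.389), and the single probe sets described further on show that 4 of 14 carried it.

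The levels of Pcdh7 and Pcdh9, each a mean of kept probe sets, ran close together over the 9 arrays. Among 16854 genes, the one nearest to Pcdh7 was Pcdh9, with a root mean square difference of 0.046 on the log2 scale after each gene was set relative to its control mean. Snx29 at 0.0587 and Atp11a at 0.0592 came next. For Pcdh9 the order was Pcdh7 at 0.046, Snd1 at 0.0553 and Atg7 at 0.0569. Those 4 other genes had log2 changes between -0.59 and -0.53 in Sfpq-/- against control. With the median of probe sets the changes of Pcdh7 and Pcdh9 were -0.71 and -0.20, so the closeness belongs to the means.

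The promoters of Pcdh7 and Pcdh9 are shown because their gene levels ran close together. Single probe sets of these genes did not fall alike, as described further on, and any part of the promoters was not tested. The promoters are RefSeq sequences on build GRCm38.p6, each from 250 bases before to 50 bases after the annotated start, read 5′ to 3′ on the gene's strand. The Pcdh7 promoter lies at chr5:57717831-57718130 on the plus strand, and the Pcdh9 promoter at chr14:93890630-93890929 on the minus strand. Capitals mark matches on either strand to the TATA box TATAAA, to the CAAT box CCAAT, to the GC box GGGCGG and to the purine repeat GAGAGAG.
Pcdh7: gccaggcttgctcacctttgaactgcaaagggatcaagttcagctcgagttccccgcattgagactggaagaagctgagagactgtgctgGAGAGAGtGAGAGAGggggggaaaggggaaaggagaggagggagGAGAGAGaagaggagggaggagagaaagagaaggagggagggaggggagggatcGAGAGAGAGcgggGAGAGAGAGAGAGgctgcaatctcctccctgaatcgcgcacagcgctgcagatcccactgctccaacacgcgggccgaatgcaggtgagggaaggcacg
Pcdh9: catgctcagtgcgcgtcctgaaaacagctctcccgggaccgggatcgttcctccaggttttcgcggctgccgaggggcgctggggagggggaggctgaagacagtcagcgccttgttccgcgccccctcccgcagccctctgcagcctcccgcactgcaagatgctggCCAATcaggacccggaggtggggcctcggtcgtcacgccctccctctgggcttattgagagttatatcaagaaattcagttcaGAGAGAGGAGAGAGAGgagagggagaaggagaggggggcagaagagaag

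GAGAGAG, a motif chosen after these sequences were read, matched 9 times in the Pcdh7 promoter and 3 times in the Pcdh9 promoter, counting matches that overlap one another. At least 1 match was held by 10.1% of the 32851 promoters of 300 bases. The Pcdh9 promoter held 1 CCAAT, as 37.4% of promoters did at least once, and the Pcdh7 promoter none. Neither window held TATAAA (13.6% of promoters) or the GC box GGGCGG (35.7%). Among the 7 members found in the promoter table, Pcdh19 also held 3 GAGAGAG matches, while Pcdh8, Pcdh10, Pcdh17 and Pcdh18 held none. G or C made up 59.3% of the Pcdh7 window and 62.7% of the Pcdh9 window, against a median of 52.7%.

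Pcdh1, a delta-1 member best known from epithelial adhesion, was the 1 member that passed upwards. Its gene levels were 9.04, 8.98 and 9.19 on the Sfpq-/- arrays, 8.77, 8.77 and 8.67 on the Sfpq+/- arrays, and 8.65, 8.67 and 8.57 on the control arrays. The Sfpq-/- arrays lay above all others, and the values of the other genotypes overlapped. The level was 1.36-fold higher in Sfpq-/- than in control (log2 change 0.44 ± 0.08 SE, 95% interval 0.26 to 0.61, limma adjusted p = 0.00363). It did not pass with every probe set kept regardless of brightness (0.33, limma adjusted p = 0.0716) or with the median of the probe sets (0.38, limma adjusted p = 0.131). The genes closest to it over the 9 arrays were Per1 (root mean square difference 0.0582), Slc35e4 (0.0665) and Tgfa (0.0675), with log2 changes between 0.37 and 0.49.

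Pcdh11x, the X-linked delta-1 member, had gene levels of 8.23, 8.16 and 8.14 on the Sfpq-/- arrays, 8.26, 8.31 and 8.35 on the Sfpq+/- arrays, and 8.49, 8.25 and 8.30 on the control arrays. The Sfpq-/- arrays were the 3 lowest, by a margin smaller than the spread among the controls. The change of -0.17 ± 0.08 (SE) had a 95% interval of -0.35 to 0.00 and did not pass (limma adjusted p = 0.221).

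Of the delta-2 members, none passed at the gene level. Pcdh19, which binds N-cadherin and in humans is the gene of an X-linked epilepsy of girls, had levels of 10.04, 10.20 and 9.97 on the Sfpq-/- arrays, 10.24, 10.36 and 10.38 on the Sfpq+/- arrays, and 10.34, 10.29 and 10.42 on the control arrays. The Sfpq-/- arrays lay below all others, and the change of -0.28 ± 0.08 (SE, 95% interval -0.46 to -0.09) just missed the threshold (limma adjusted p = 0.0551). Without Sfpq-/- replicate 2 it was -0.34 and passed (limma adjusted p = 0.0213), and after quantile normalization it also passed (limma adjusted p = 0.0311). In all, it passed under 4 of the 14 alternative settings. Under the other 10 it did not, with limma adjusted p of up to 0.17.

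Pcdh10, which recruits the WAVE complex and is required for forebrain axon tracts in mice, had levels of 9.22, 9.24 and 9.20 on the Sfpq-/- arrays, 9.74, 9.44 and 9.37 on the Sfpq+/- arrays, and 9.60, 9.49 and 9.34 on the control arrays. The Sfpq-/- values lay close together and below all others, while the other genotypes spread more widely. The change of -0.25 ± 0.10 (SE, 95% interval -0.48 to -0.02) did not pass (limma adjusted p = 0.164).

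Pcdh8, also called arcadlin, which in rat neurons binds N-cadherin and the kinase Taok2, had levels of 8.51, 8.48 and 8.56 on the Sfpq-/- arrays, 8.51, 8.46 and 8.26 on the Sfpq+/- arrays, and 8.33, 8.24 and 8.25 on the control arrays. The Sfpq-/- arrays lay above the controls and overlapped the heterozygotes. The change against control was 0.24 ± 0.08 (SE, 95% interval 0.07 to 0.42, limma adjusted p = 0.0801). Pcdh8, Pcdh10 and Pcdh19 each passed when probe sets with a mean above 7 were used (limma adjusted p = 0.0296, 0.0295 and 0.0368), which brought the count to 6 of 9, and also when arrays were weighted. Of all genes, 2306 and 4609 were called under these settings, against 2040 in the main fit. Pcdh8 and Pcdh10 each passed under only these 2 of the 14 alternative settings, with limma adjusted p of up to 0.231 and 0.355.

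Pcdh17 and Pcdh18 overlapped between genotypes. Pcdh17, which acts in collective axon extension of the amygdala in mice, had levels of 8.44, 8.74 and 8.53 on the Sfpq-/- arrays, 8.27, 8.54 and 8.44 on the Sfpq+/- arrays, and 8.36, 8.38 and 8.45 on the control arrays, a change of 0.17 ± 0.10 (SE, limma adjusted p = 0.314). Pcdh18, which binds the adaptor Dab1, had levels of 10.35, 10.80 and 10.25 on the Sfpq-/- arrays, 10.52, 10.53 and 10.36 on the Sfpq+/- arrays, and 10.52, 10.49 and 10.31 on the control arrays. Sfpq-/- replicate 2 was the highest of the 9 for both genes. The change of Pcdh18 was 0.03 ± 0.13 (SE), and its 95% interval of -0.26 to 0.32 is wide enough to hold a change like that of Pcdh10 in either direction.

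**Figure D2:**
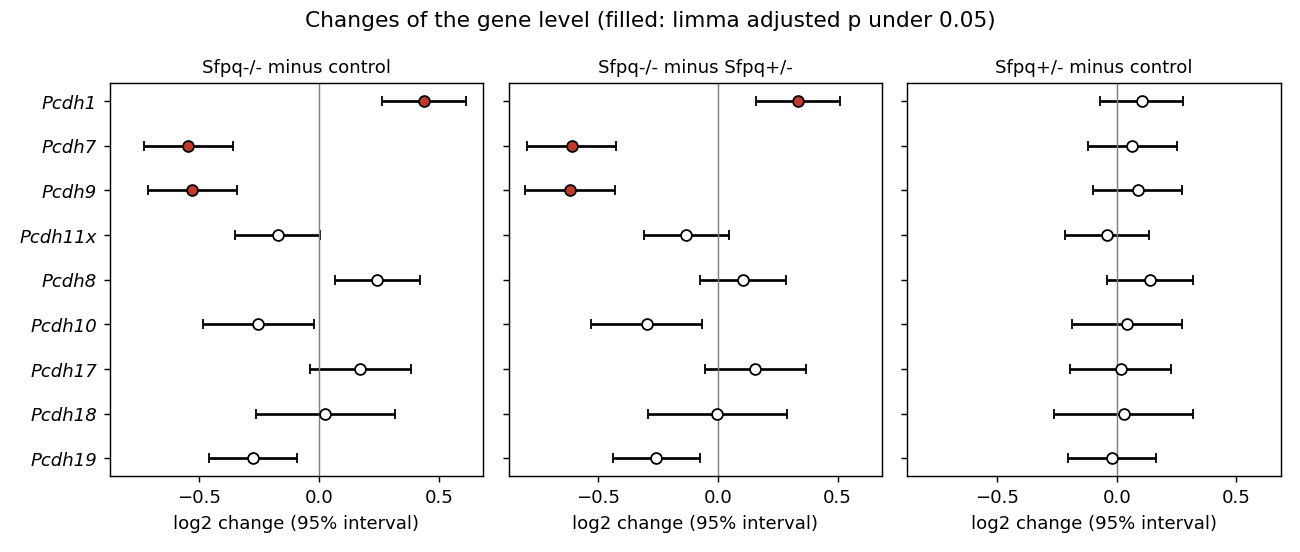
Log2 change of the gene level of each delta protocadherin (horizontal axis) with its 95% interval from limma, in Sfpq-/- minus control, Sfpq-/- minus Sfpq+/- and Sfpq+/- minus control. Filled points passed the test. Pcdh1, Pcdh7 and Pcdh9 are filled in both comparisons of Sfpq-/-, and no point is filled in Sfpq+/- minus control.

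Between Sfpq-/- and Sfpq+/- the same 3 members passed, 1 higher and 2 lower, against 11.8% of all genes (4.58% higher and 7.25% lower). These 2 comparisons share the Sfpq-/- arrays. Pcdh9 was 1.53-fold lower in Sfpq-/- (log2 change -0.62 ± 0.08 SE, limma adjusted p = 0.000566) and Pcdh7 also 1.53-fold lower (-0.61 ± 0.08 SE, limma adjusted p = 0.000617). Pcdh1 was 1.26-fold higher (0.33 ± 0.08 SE, limma adjusted p = 0.0169), and did not pass without Sfpq+/- replicate 3 (0.30, limma adjusted p = 0.0743). For Pcdh9 the median of the probe sets again ended the call (-0.31, limma adjusted p = 0.152). The arrays did not overlap for 6 of 9 members, 1 higher and 5 lower, against 26.9% of all genes, and 5 of 9 had an unadjusted p under 0.05, against 22.6%. The median change was -0.13, and over all genes it was 0.03.

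The other members showed smaller differences between Sfpq-/- and Sfpq+/-. Pcdh10 changed by -0.30 ± 0.10 (SE, limma adjusted p = 0.106) and Pcdh19 by -0.26 ± 0.08 (SE, limma adjusted p = 0.0771), with all Sfpq-/- arrays below. Pcdh10 passed with the replicate block (limma adjusted p = 0.0438), with probe sets above 7 (-0.32, limma adjusted p = 0.0288) and with array weights (-0.28, limma adjusted p = 0.0432). Pcdh19 passed with array weights (-0.28, limma adjusted p = 0.0097) and without Sfpq-/- replicate 2 (-0.32, limma adjusted p = 0.0257). Under the other alternatives, 11 of 14 for Pcdh10 and 12 of 14 for Pcdh19, neither passed, with limma adjusted p of up to 0.358 and 0.216. Pcdh11x stood at -0.13, Pcdh8 at 0.11, Pcdh17 at 0.16 and Pcdh18 at 0.00, with limma adjusted p between 0.377 and 0.996.

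In Sfpq+/- against control, 0 of 9 members passed in limma, against 0% of all genes, and 0 of 9 had an unadjusted p under 0.05, against 4.24% of all genes. The arrays overlapped for all 9 members, whereas they did not overlap for 12.5% of all genes. The log2 changes ran from -0.04 for Pcdh11x to 0.14 for Pcdh8, with a median of 0.04 against 0.03 over all genes. For Pcdh7 the change was 0.07 (95% interval -0.12 to 0.25), for Pcdh9 0.09 (-0.10 to 0.27) and for Pcdh1 0.10 (-0.07 to 0.28). The intervals of Pcdh7 and Pcdh9 do not reach the falls seen in Sfpq-/-. This comparison shares the control arrays with that of Sfpq-/- against control.

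Pcdh11x and Pcdh19 lie on the X chromosome, and the sexes were not balanced between genotypes. On arrays with high Xist, Pcdh19 had 10.04 in Sfpq-/- (n = 1) and a mean of 10.31 in control (n = 2). On arrays with low Xist it averaged 10.09 in Sfpq-/- (n = 2) and had 10.42 in control (n = 1), so the order of the genotypes was alike in both classes. Pcdh11x had 8.23 in Sfpq-/- and 8.37 in control on arrays with high Xist, and 8.15 in Sfpq-/- and 8.30 in control on arrays with low Xist. With the sex class as a covariate the changes were -0.30 for Pcdh19 (limma adjusted p = 0.0563) and -0.15 for Pcdh11x (limma adjusted p = 0.324).

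The single probe sets show where the signal of a gene moved. In Sfpq-/- against control, 9 of the 119 kept probe sets of the class passed (7.56%), and all 9 were lower. Of the 253544 kept probe sets annotated to 1 gene, as those of the class are, 3.12% passed and 2.27% passed as lower, while of all 628415 kept probe sets, annotated or not, 1.75% passed and 1.19% passed as lower. They belonged to Pcdh9 (4 of 14), Pcdh7 (4 of 10) and Pcdh10 (1 of 22). Sfpq-/- against Sfpq+/- also gave 9, all lower, with 4 in Pcdh9, 4 in Pcdh7 and 1 in Pcdh10, against 3.4% of those annotated to 1 gene in either direction and 2.75% lower (1.93% and 1.5% of all kept probe sets). Sfpq+/- against control gave 0 of 119 in limma, against 0% of all, with 3 at an unadjusted p under 0.05, against 4.49% of all.

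**Figure D3:**
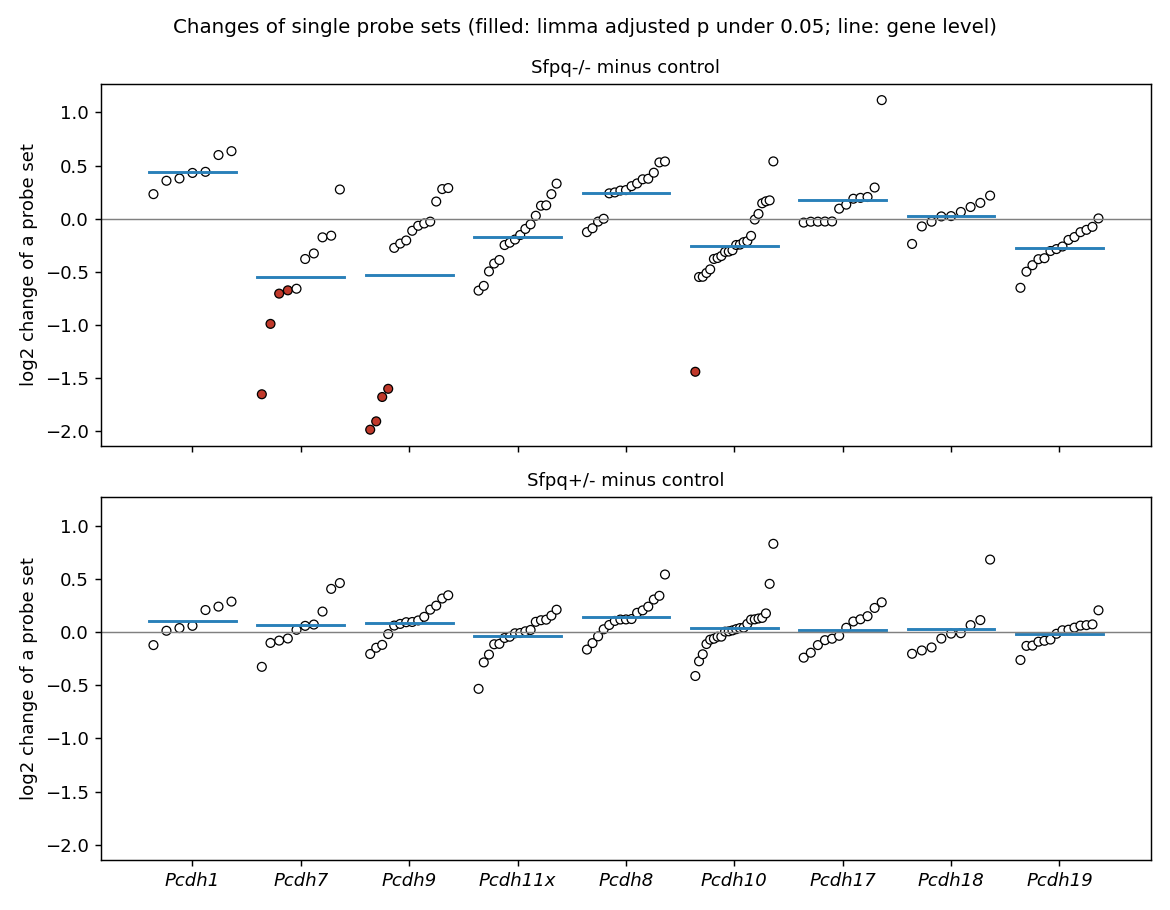
Log2 change of each kept probe set (points, vertical axis), grouped by gene, in Sfpq-/- minus control (upper panel) and Sfpq+/- minus control (lower panel). The line is the change of the gene level, and filled points passed the test. In Sfpq-/- 4 probe sets of Pcdh9 lie between -1.98 and -1.60, apart from the other 10, which lie between -0.27 and 0.29.

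Pcdh9 split into separate sets of probe sets. Probe set 4557806 had log2 signals of 6.67, 6.56 and 6.36 on the Sfpq-/- arrays, 8.62, 8.80 and 8.31 on the Sfpq+/- arrays, and 8.66, 8.30 and 8.59 on the control arrays. Relative to control the Sfpq-/- signal was 3.96-fold lower (log2 change -1.98 ± 0.17 SE, limma adjusted p = 0.000628). Probe set 4888629 had 7.43, 6.85 and 7.43 on the Sfpq-/- arrays, 9.12, 9.11 and 8.76 on the Sfpq+/- arrays, and 9.07, 9.13 and 9.23 on the control arrays (-1.91 ± 0.19 SE, limma adjusted p = 0.00112). In both, the lowest array outside Sfpq-/- stood more than 1 log2 unit above the highest Sfpq-/- array.

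The 2 others that fell had the same form. Probe set 4789996 had 7.87, 7.59 and 7.60 on the Sfpq-/- arrays, 9.27, 9.44 and 9.02 on the Sfpq+/- arrays, and 9.31, 9.29 and 9.49 on the control arrays (-1.68 ± 0.16 SE, limma adjusted p = 0.00084). Probe set 5476142 had 7.79, 7.62 and 7.89 on the Sfpq-/- arrays, 8.998, 9.27 and 9.22 on the Sfpq+/- arrays, and 9.32, 9.19 and 9.59 on the control arrays (-1.60 ± 0.16 SE, limma adjusted p = 0.00107). All 4 passed in Sfpq-/- against control under all 13 alternatives run for probe sets. The other 10 probe sets of Pcdh9 changed by -0.27 to 0.29, and none of them passed. As a description, the mean signal of the 4 was 7.30 ± 0.14 on Sfpq-/- arrays, 8.995 ± 0.16 on Sfpq+/- arrays and 9.10 ± 0.13 on control arrays, while that of the other 10 was 9.90 ± 0.20 on Sfpq-/- arrays, 10.09 ± 0.08 on Sfpq+/- arrays and 9.92 ± 0.08 on control arrays (SD, n = 3 each).

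**Figure D4:**
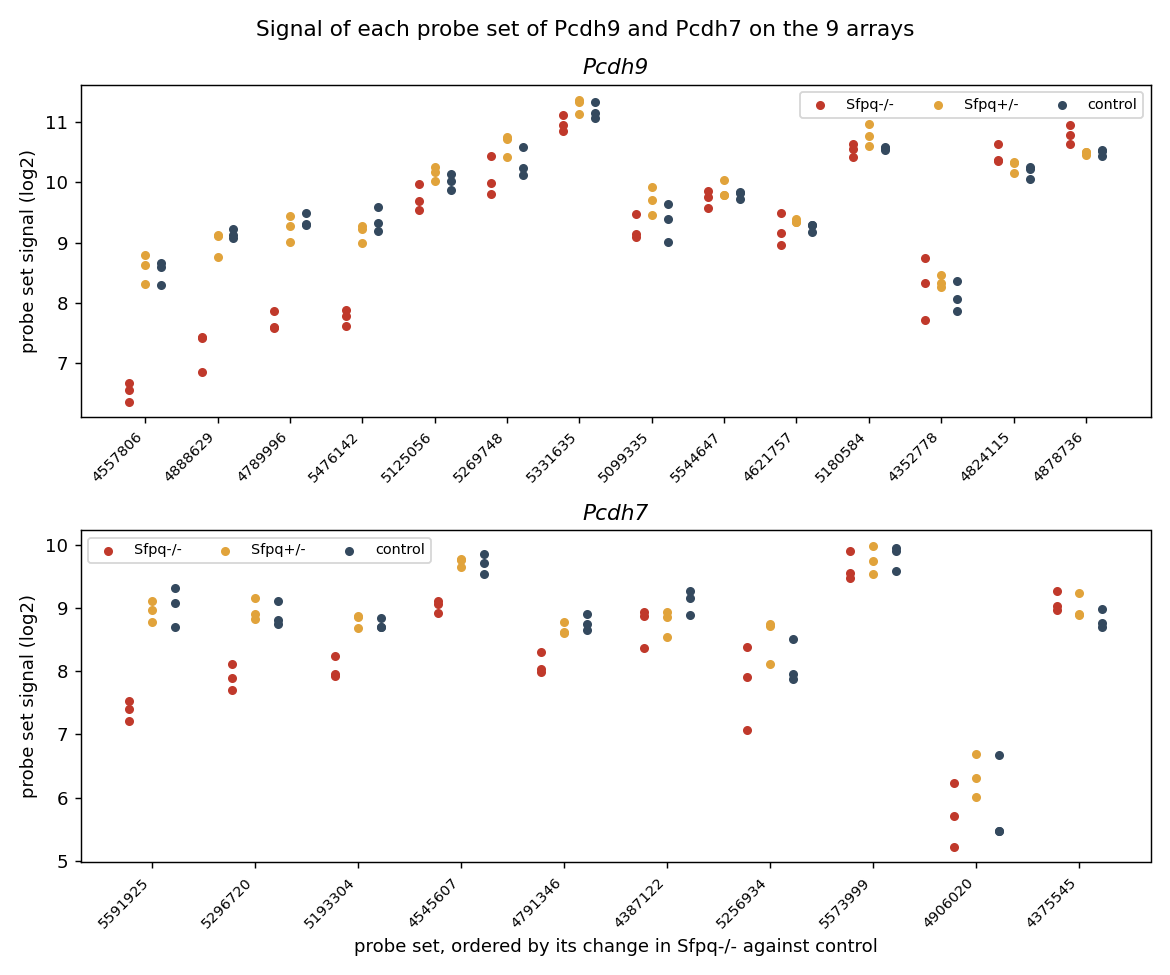
Log2 signal (vertical axis) of each kept probe set of Pcdh9 (upper panel) and Pcdh7 (lower panel) on the 9 arrays, ordered from left to right by the change in Sfpq-/- against control, which is not the order along the gene. The first 4 probe sets of Pcdh9 and the first 4 of Pcdh7 passed the test, and on each of them the 3 Sfpq-/- arrays lie below the 6 other arrays.

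A second test asked whether a probe set changed otherwise than the mean of its gene. In Sfpq-/- against control 9 of 119 probe sets passed it (7.56%), against 0.926% of all those tested. For Pcdh9 there were 4 below the gene mean, the same 4 as above, with deviations from -1.46 (4557806, limma adjusted p = 0.00157) to -1.07 (5476142, limma adjusted p = 0.0176). The deviations of 4557806 and 4789996 passed under all 13 alternatives, that of 4888629 under 10 and that of 5476142 under 9, with highest limma adjusted p of 0.0652 and 0.0681 for the last 2. Another 2 lay above it, 4824115 by 0.81 (limma adjusted p = 0.00405) and 4878736 by 0.82 (limma adjusted p = 0.00788). Their own signals changed by 0.28 and 0.29 and did not pass, so their deviation is relative to a gene mean that includes the 4 that fell. Taken from the gene median instead, 4824115 still passed (0.47, limma adjusted p = 0.0424) and 4878736 did not (0.48, limma adjusted p = 0.0688). Between Sfpq-/- and Sfpq+/- 8 of 119 probe sets passed this test (6.72%), against 0.839% of all those tested, and 4 passed without Sfpq+/- replicate 1 or with only the arrays of the 2 groups. The positions of the probe sets along Pcdh9 were not used here.

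Pcdh7 fell more evenly. Of its 10 kept probe sets 9 were lower in Sfpq-/- than in control, from -1.65 to 0.27 with a median of -0.52. Probe set 5591925 had 7.40, 7.21 and 7.52 on the Sfpq-/- arrays, 8.77, 8.96 and 9.11 on the Sfpq+/- arrays, and 9.08, 8.70 and 9.31 on the control arrays, with a signal 3.14-fold lower in Sfpq-/- relative to control (-1.65 ± 0.19 SE, limma adjusted p = 0.00206). It passed under all 13 alternatives. Probe set 5296720 had 7.70, 7.89 and 8.12 on the Sfpq-/- arrays, 8.82, 9.16 and 8.91 on the Sfpq+/- arrays, and 9.11, 8.75 and 8.82 on the control arrays (-0.99 ± 0.17 SE, limma adjusted p = 0.0191).

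Probe sets 5193304 (-0.70, limma adjusted p = 0.0397) and 4545607 (-0.67, limma adjusted p = 0.0437) passed near the threshold. Of the 13 alternatives, 5193304 passed under 5, 4545607 under 4 and 5296720 under 6, so the calls on these 3 depend on the setting. The 6 probe sets that did not pass averaged 8.18 ± 0.16 on Sfpq-/- arrays, 8.51 ± 0.09 on Sfpq+/- arrays and 8.42 ± 0.15 on control arrays (SD, n = 3 each). Against the gene mean, 5591925 deviated by -1.11 (limma adjusted p = 0.025) and 4375545, whose own signal changed by 0.27 and did not pass, by 0.82 (limma adjusted p = 0.00712). The deviation of 5591925 passed under 6 of 13 alternatives, with a highest limma adjusted p of 0.0907, and did not pass against the gene median (-0.94, limma adjusted p = 0.0857).

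Of the 22 probe sets of Pcdh10, 17 were lower in Sfpq-/- than in control, and 1 passed the test. This probe set, 5252680, had 9.84, 9.73 and 9.67 on the Sfpq-/- arrays, 11.14, 10.96 and 10.83 on the Sfpq+/- arrays, and 11.23, 11.14 and 11.19 on the control arrays. The Sfpq-/- arrays stood about 1 log2 unit or more below every other array, a 2.71-fold lower signal than in control (-1.44 ± 0.14 SE, limma adjusted p = 0.00084). It deviated from the gene mean by -1.19 (limma adjusted p = 0.00152), and both results held under all 13 alternatives. The other 21 probe sets averaged 9.20 ± 0.02 on Sfpq-/- arrays, 9.45 ± 0.20 on Sfpq+/- arrays and 9.39 ± 0.14 on control arrays (SD, n = 3 each), and none of them passed.

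No single probe set of the other 6 members passed in Sfpq-/- against control. Simulated data held 100 planted probe sets of each size among 628415. There the probe set test found 2% of planted log2 changes of 1 and 82% of those of 2. In the data 11007 probe sets passed, which makes the adjusted threshold less strict than on the simulated data. The simulated rates therefore do not give the share found here. A probe set that did not pass may still have changed. All 7 kept probe sets of Pcdh1 were higher in Sfpq-/-, by 0.23 to 0.64. The one with the smallest p, 4578739, changed by 0.60 ± 0.17 (SE, limma adjusted p = 0.152). For Pcdh19, 13 of 14 were lower, and 5152405 changed by -0.65 ± 0.16 (SE, limma adjusted p = 0.0987). For Pcdh8, 11 of 15 were higher, and 4609524 changed by 0.54 ± 0.13 (SE, limma adjusted p = 0.0842).

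For Pcdh11x, 11 of 16 kept probe sets were lower, and 5308776 changed by -0.63 ± 0.20 (SE, limma adjusted p = 0.234). Among the 9 of Pcdh18 the changes ran from -0.24 to 0.22, with 4571404 at -0.24 ± 0.19 (SE, limma adjusted p = 0.754). The 12 of Pcdh17 ran from -0.04 to 1.12. The highest, 5372128, is dim, with 6.12, 7.36 and 6.38 on the Sfpq-/- arrays, 5.57, 5.89 and 5.73 on the Sfpq+/- arrays, and 5.57, 5.68 and 5.26 on the control arrays (limma adjusted p = 0.12). It passed the filter of 5.64 only through its Sfpq-/- signals, and it enters the gene-level change of 0.17 for Pcdh17. That change was 0.09 with probe sets with a mean above 7 (limma adjusted p = 0.568) and 0.24 with no filter (limma adjusted p = 0.171).

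The members differ widely in gene length, measured as the RefSeq span on GRCm38.p6. Pcdh9 spans 879 kb, Pcdh11x 620 kb and Pcdh7 417 kb, whereas Pcdh19 spans 106 kb, Pcdh17 94.0 kb, Pcdh10 56.2 kb, Pcdh1 26.1 kb, Pcdh18 14.1 kb and Pcdh8 4.54 kb. In Sfpq-/- against control, 58% of the 205 genes of at least 500 kb passed as lower, as did 38.1% of the 713 genes of 200 to 500 kb and 3.99% of those of 20 to 100 kb. Their median changes were -0.45, -0.18 and 0.04. Pcdh9, with -0.53, was near the median of its length class, Pcdh7, with -0.54, was below the median of its own, and Pcdh11x, with -0.17, was above the median of the longest class. Pcdh1 was among the 6.58% of genes of 20 to 100 kb that passed as higher. Whether length bears on the members was not tested.

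The genes of proteins reported to act with delta protocadherins moved in both directions. Of 19 measured, 2 passed as higher and 3 as lower in Sfpq-/- against control, with a median change of 0.01, beside 5.98% higher, 6.12% lower and a median of 0.03 over all genes. The same shares of all genes stand beside the lists that follow. The lower ones were Dab1, the reelin adaptor that binds Pcdh18 (-1.35 ± 0.08 SE, limma adjusted p = 2.5e-06), the tyrosine kinase Fyn (-0.67 ± 0.10 SE, limma adjusted p = 0.000817) and Cdh2, which encodes N-cadherin (-0.41 ± 0.11 SE, limma adjusted p = 0.031). The higher ones were the WAVE complex subunits Wasf1 (0.41 ± 0.07 SE, limma adjusted p = 0.00302) and Abi2 (0.30 ± 0.08 SE, limma adjusted p = 0.0342). Nckap1, the WAVE subunit through which Pcdh10 acts, changed by 0.04, and Ppp1ca, which encodes the phosphatase bound by the delta-1 members, by 0.00, and neither passed.

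Nono, which encodes a DBHS partner of Sfpq reported to bind the Pcdh19 protein in human cells, changed by 0.14 (limma adjusted p = 0.341). Against Sfpq+/-, 1 partner was higher (Wasf1, 0.33) and 3 were lower (Dab1, -1.39, Fyn, -0.69 and Cdh2, -0.51), beside 4.58% higher and 7.25% lower over all genes. In Sfpq+/- against control none of the 19 passed in limma, against 0% of all genes. There 1 had an unadjusted p under 0.05 (Wasf3, 0.16), against 4.24% of all genes.

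Among the other protocadherins, 34 of 48 clustered genes were measured, and 1 of them passed in Sfpq-/- against control, Pcdhga5 with -0.35 ± 0.09 (SE, limma adjusted p = 0.0245). The median of the 34 was -0.04. Clustered protocadherins have neighbours of closely similar sequence within a cluster, so their values are uncertain. Of the 4 other nonclustered genes, Pcdh15, a component of hair cell tip links, fell (-0.83 ± 0.08 SE, limma adjusted p = 4.22e-05) and Cdhr1, a cadherin of photoreceptors, rose (0.42 ± 0.09 SE, limma adjusted p = 0.008). Pcdh12 and Pcdh20 changed by 0.02 and 0.03 and did not pass.

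Markers of other cell types moved with the genotype beside the members. Of 9 Cajal-Retzius genes, 6 passed as higher in Sfpq-/- against control and none as lower (median 0.41), namely Lhx5 (1.02), Ebf2 (0.73), Calb2 (0.69), Lhx1 (0.48), Nhlh2 (0.41) and Ebf3 (0.34). The other 3 did not pass and overlapped between the genotypes, namely Reln (-0.04), which encodes the glycoprotein these cells secrete, Trp73 (-0.09) and Cacna2d2 (-0.07), with limma adjusted p between 0.529 and 0.811. The mean level of the 9 ran from 8.94 to 9.03 on Sfpq-/- arrays, from 8.62 to 8.67 on Sfpq+/- arrays and from 8.47 to 8.68 on control arrays. Of 12 microglial genes, 8 passed as higher and none as lower (median 0.30), those of smallest p being Cd68 (0.51), Tyrobp (0.36), Fcrls (0.33) and Trem2 (0.34), with mean levels of 8.01 to 8.04 on Sfpq-/- arrays, 7.69 to 7.83 on Sfpq+/- arrays and 7.73 to 7.75 on control arrays. Against Sfpq+/- fewer passed, 5 of the 9 Cajal-Retzius genes and 3 of the 12 microglial genes, all higher (medians 0.38 and 0.27). Of all genes, 4.58% passed as higher in that comparison. The part of these cell types in the values of Pcdh1, Pcdh7 and Pcdh9 was not tested.

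The remaining lists moved in few genes. Of 15 ganglionic eminence and interneuron genes Gad1 (0.98) and Ebf1 (0.62) passed as higher and Sst (-0.69) as lower. The mean level of the 15 was 8.79, 8.57 and 8.70 on the Sfpq-/- arrays, 8.63, 8.52 and 8.68 on the Sfpq+/- arrays, and 9.19, 8.64 and 8.36 on the control arrays, so the controls spread most, with replicate 1 the highest of the 9 arrays and replicate 3 the lowest. The part of that spread in the members' values was not tested. Of 7 cortical genes Fezf2 (-0.49) and Lhx2 (-0.34) passed as lower (median of the 7 -0.01). Their mean level ran from 10.10 to 10.16 on Sfpq-/- arrays, from 10.26 to 10.35 on Sfpq+/- arrays and from 10.21 to 10.23 on control arrays. The Sfpq-/- arrays were thus the lowest, and the part of this in the members' values was not tested. Rspo3 (0.32) passed among 13 genes of the dorsal midline and choroid plexus, and Rgs5 (0.30) among 11 of endothelium and pericytes. None of 10 meningeal or 7 erythroid genes passed in limma, the smallest adjusted p being 0.211 for Tbx18 (0.16) and 0.317 for Foxc1 (0.16), and 0.105 for Klf1 (-0.30) and 0.183 for Slc4a1 (-0.39). In Sfpq+/- against control no gene of any list passed, against 0% of all genes.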

How the data were processed

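Per the submitters' processing notes the authors used Affymetrix Expression Console 1.2.0.20, and the deposited values, 9 exon arrays with 3 per group, are log2 signals per probe set. Since the series' own design text names a different program, the Exon Array Computational Tool, which of them made the values is not settled. The background correction and normalization behind them are not given in any source used here, and detection calls were not used. Array medians ran from 5.65 to 5.70, and the number of arrays limits the precision.

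Gene names came from the platform annotation, with symbols updated through unique RefSeq synonyms (3993 updated, 18006 current, 63 kept as given, 234 not updated). The 6684 probe sets with several symbols entered no gene. Probe sets whose mean exceeded the median of all (5.64) were kept, and a gene level is the mean of at least 3 kept probe sets. Genes (16854), kept probe sets (628415) and deviations of probe sets from their gene mean (248590) were fitted with limma 3.58.1 in R 4.3.3, with 3 group means over all 9 arrays and Benjamini-Hochberg adjustment at 0.05 over all features. The tests were checked on simulated data.

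The 9 members and the lists of partners, protocadherins and cell type markers were chosen with earlier results of these data known. By rule every member is named, with its probe sets past the threshold (at most 4) or the one of smallest p. In Sfpq-/- against control, list genes past the threshold are named (the 4 of smallest p where over 6 passed, the 2 of smallest p where none did). The other probe sets that deviated from their gene, Emx1 and Wasf3 were named after their values were seen.

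Same-numbered arrays of Sfpq-/- and control correlated at 0.28, 0.01 and 0.57 in their deviations from the group means. The values were 0.25, 0.05 and 0.31 for Sfpq+/- and control, and -0.06, 0.04 and 0.30 for Sfpq-/- and Sfpq+/-. They do not settle whether the numbers pair the samples. The main fit did not pair them, and a replicate block was run as an alternative. Alternatives were other filters, the median of probe sets, quantile normalization, a replicate block, only 2 groups, array weights, sex, only annotated probe sets, and leaving out each array.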

Additional observations from a re-analysis of the deposited data

How the results depend on the processing

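Among members, 3 passed in Sfpq-/- against control, 3 in Sfpq-/- against Sfpq+/- and 0 in Sfpq+/- against control, where every alternative also gave 0. Against control, 6 passed with probe sets above 7, 6 with array weights (Pcdh8, Pcdh10 and Pcdh19 added in both) and 1, Pcdh7, with the median of probe sets. Of all genes, 2306, 4609 and 1501 were called under these settings, against 2040 in the main fit. Against Sfpq+/-, 5 passed with array weights, where 3635 of all genes were called, against 1994 in the main fit. Leaving out each array gave 3 to 4 members against control (1311 to 2453 of all genes) and 2 to 4 against Sfpq+/- (1397 to 2267). The 9 single probe sets called against control became 15 with a mean above 7 (3.85% of all tested then passed, against 1.75%), 18 when only probe sets annotated to 1 gene were tested (3 higher, 15 lower, with 5.45% of all tested), and 6 to 7 without each array, and the 9 called against Sfpq+/- became 6 to 8. Alternatives to the deviation test, among them the gene median, were chosen after seeing the data. The test gave 9 against control (6 to 11 without each array, 7 from the gene median) and 8 against Sfpq+/-, which became 4 with only the arrays of the 2 groups and 4 to 8 without each array (4 without Sfpq+/- replicate 1). With the replicate block, 3, 0 and 4 members, 8, 0 and 8 probe sets and 9, 0 and 8 deviations passed for Sfpq-/- against control, Sfpq+/- against control and Sfpq-/- against Sfpq+/-, and Pcdh10 passed in the last (-0.30, limma adjusted p = 0.0438). Of all genes, 2469, 0 and 2367 were called with this block. Array weights were estimated gene by gene, ran from 0.36 to 3.18 and raised the genes called overall to 4609, against 2040. No called value changed its direction in any alternative. The cause of these shifts was not tested. Signals near the filter of 5.64 are limited by background, which has no measure in the values used.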

Other observations

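Of the 8 member probe sets below the filter, 3 had arrays of Sfpq-/- that did not overlap the controls. The share of all probe sets below the filter that did so was not computed, so this count is only a description. Probe set 5312087 of Pcdh7 had log2 signals of 2.89, 4.13 and 3.06 on the Sfpq-/- arrays, 4.94, 4.86 and 4.73 on the Sfpq+/- arrays, and 4.42, 4.73 and 4.199 on the control arrays. Probe set 4830545 of Pcdh17 had 5.84, 5.57 and 5.74 on the Sfpq-/- arrays, 4.78, 4.48 and 4.16 on the Sfpq+/- arrays, and 5.49, 4.19 and 4.18 on the control arrays. Probe set 5277348 of Pcdh1 had 5.27, 5.27 and 5.66 on the Sfpq-/- arrays, 4.82, 5.37 and 4.74 on the Sfpq+/- arrays, and 5.12, 5.09 and 5.12 on the control arrays. All 3 were picked after their values were seen and were not tested, since signals this dim have no measure of background here.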
